A study of Mus musculus with 8 samples.

Results

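The genes described here are 30 of those that encode subunits of the SWI/SNF chromatin remodeling complexes BAF, PBAF and non-canonical BAF, without *Bicra*. They were taken as a named list, *Arid1a* included, and all 30 were found among the 20807 autosomal protein-coding genes of the mouse annotation; none of them is sex-linked. Their chromatin accessibility was measured by ATAC-seq, in which a transposase cuts open DNA, in mouse pachytene spermatocytes, the meiotic germ cells whose homologous chromosomes are fully synapsed. The 8 libraries fall into *Arid1a* WT and *Arid1a* cKO groups of 4 libraries each, and each genotype is represented by 1 peak list, which leaves the values without replicate error and allowed no test between genotypes. The cKO males were *Arid1a* fl/fl with 1 copy of the *Stra8-Cre* transgene. The WT males were *Arid1a* fl/fl or *Arid1a* fl/+ without Cre, so the controls carried floxed alleles too. The floxed line was on a CD1 background, and Cre came through the mothers. The transgene is expressed from spermatogonia onwards and its activity was incomplete, so that escaper cells with ARID1A are mixed into the cKO fraction. Testes of adult males were pooled, pachytene fractions were enriched by sedimentation, and the libraries of a genotype were made from frozen aliquots.

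SWI/SNF complexes use the energy of ATP to slide or evict nucleosomes. All forms contain an ATPase, SMARCA4 or SMARCA2, with an actin-like protein, actin and a BCL7 protein, and a SMARCC and SMARCD scaffold. BAF and PBAF also hold SMARCB1 and SMARCE1. BAF adds ARID1A or ARID1B, a DPF protein and SS18; PBAF instead adds ARID2, PBRM1, BRD7 and PHF10; non-canonical BAF lacks SMARCB1, SMARCE1 and an ARID protein, and holds BRD9 with BICRA or BICRAL. Many positions in the complex can be filled by one of several paralogs, and some of these (DPF1, DPF3, ACTL6B, SS18L1, SMARCD3, BCL11A and BCL11B) are best known from neurons, muscle or lymphocytes. For this description 9 genes were counted as BAF-specific, 4 as PBAF-specific, 2 as non-canonical BAF and 15 as shared; *Ss18* was counted as BAF-specific although SS18 is also found in non-canonical BAF, and shared means common at least to BAF and PBAF.

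Sequences are shown first for the promoters on which the results turn, namely the targeted gene with its start sites, an ATPase pair and an ACTL6 pair whose paralogs differed in accessibility, and the start of *Smarcd3*, which had a peak in the cKO list only. Each is the run of 250 bases before a transcription start, written 5′ to 3′ along the gene, from RefSeq promoters on GRCm38.p6 except for *Smarcd3*, which was read from the same assembly inside the gained peak. Capitals mark GGGCGG (GC box), CCAAT (NF-Y) and CCGGAAG (ETS) on either strand.
*Arid1a*, 5′ end, chr4:133756770-133757019, minus strand: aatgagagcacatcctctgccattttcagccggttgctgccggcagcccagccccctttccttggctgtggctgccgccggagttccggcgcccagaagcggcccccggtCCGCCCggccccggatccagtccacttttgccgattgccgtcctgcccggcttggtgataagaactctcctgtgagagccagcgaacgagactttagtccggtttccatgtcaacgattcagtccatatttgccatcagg
*Arid1a*, internal start 2784 bp downstream, chr4:133753986-133754235, minus strand: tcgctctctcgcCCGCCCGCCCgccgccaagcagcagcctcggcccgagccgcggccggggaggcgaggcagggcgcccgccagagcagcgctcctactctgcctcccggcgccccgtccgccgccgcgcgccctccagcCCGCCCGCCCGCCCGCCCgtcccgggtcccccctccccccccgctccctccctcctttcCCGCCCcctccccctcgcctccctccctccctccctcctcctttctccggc
*Smarca4*, chr9:21615919-21616168, plus strand: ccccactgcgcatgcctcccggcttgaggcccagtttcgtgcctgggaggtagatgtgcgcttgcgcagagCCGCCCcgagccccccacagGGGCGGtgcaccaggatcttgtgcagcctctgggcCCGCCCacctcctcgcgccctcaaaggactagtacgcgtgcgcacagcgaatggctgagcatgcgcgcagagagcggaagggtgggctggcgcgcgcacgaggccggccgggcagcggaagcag
*Smarca2*, chr19:26604910-26605159, plus strand: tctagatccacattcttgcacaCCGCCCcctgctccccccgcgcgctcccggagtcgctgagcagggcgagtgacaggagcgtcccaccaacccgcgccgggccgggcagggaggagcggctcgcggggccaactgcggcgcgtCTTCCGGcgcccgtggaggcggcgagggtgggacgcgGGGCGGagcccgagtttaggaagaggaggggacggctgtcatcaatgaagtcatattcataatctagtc
*Actl6a*, internal start 2248 bp downstream, chr3:32708296-32708545, plus strand: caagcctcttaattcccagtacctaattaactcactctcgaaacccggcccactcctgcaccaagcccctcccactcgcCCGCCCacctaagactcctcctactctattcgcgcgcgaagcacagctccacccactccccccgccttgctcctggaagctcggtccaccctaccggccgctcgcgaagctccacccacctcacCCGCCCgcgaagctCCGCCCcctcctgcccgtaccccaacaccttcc
*Actl6b*, chr5:137553296-137553545, plus strand: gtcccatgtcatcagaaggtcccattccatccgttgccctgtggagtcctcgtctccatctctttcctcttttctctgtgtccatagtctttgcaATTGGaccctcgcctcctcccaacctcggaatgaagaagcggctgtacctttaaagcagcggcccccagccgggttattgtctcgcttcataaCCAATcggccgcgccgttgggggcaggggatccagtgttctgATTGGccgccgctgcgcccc
*Smarcd3*, chr5:24624412-24624661, minus strand: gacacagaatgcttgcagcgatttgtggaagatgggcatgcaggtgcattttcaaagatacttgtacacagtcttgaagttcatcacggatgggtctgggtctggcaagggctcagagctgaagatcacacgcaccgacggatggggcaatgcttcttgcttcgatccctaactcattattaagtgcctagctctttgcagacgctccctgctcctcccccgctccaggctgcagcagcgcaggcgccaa

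The GC box occurred 7 times before the internal start of *Arid1a*, counting overlapping matches singly, and once before its 5′ end. It occurred 3 times at *Smarca4* and *Actl6a* and 2 times at *Smarca2*, whereas none was found at *Actl6b*, which held 3 CCAAT boxes, or before the 5′ end of *Smarcd3*, where none of the 6 motifs searched was found. The RefSeq promoter of *Smarcd3* is another one, inside the gene (chr5:24602003-24602252), where neither list had a peak. It has 76% GC and 2 GC boxes, and it is the one counted for *Smarcd3* below. Promoter sequences were at hand for 24 of the 30 genes, with 26 starts; *Actb*, *Smarce1*, *Bcl7a*, *Bicral*, *Ss18* and *Arid2* were not in the table. The windows of both *Brd9* starts (chr13:73937561-73937810 and chr13:73937578-73937827) overlap almost fully, so their GC boxes and CCGGAAG match count at each start. GGGCGG was present in 21 of the 26 (80.8%) and in 33.0% of 31396 autosomal promoters of the same length. These promoters belong to 25748 genes, more than the 20807 protein-coding genes. The comparison here and below is thus not limited to protein-coding genes. Base composition differed alongside: the median GC content was 68% in the subunit promoters and 52.4% over all promoters, and the observed over expected CpG ratio was 0.933 and 0.379, respectively. CCAAT was present in 5 of 26 against 33.7% of all promoters, CCGGAAG in 4 of 26 against 7.01%, the E-box CACGTG in 3 of 26 against 6.02%, the NRF1 core CGCATGCG in 1 of 26 against 1.54%, and the CRE TGACGTCA in 0 of 26 against 1.58%. The 6 motifs share no letters with each other where they matched in the printed sequences. Counted by gene, GGGCGG was found at 19 of the 24 and CCGGAAG at 3. A match is a match of letters only.

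The value used throughout is the deposited fold enrichment, a linear ratio of the fragments stacked over the summit of a peak to the background of its library, with 1 added to both. All values of a list came from 1 library of that genotype. For WT, 19309 peaks were listed over a background of 4.33 fragments at each base, and the lowest listed fold was 2.63. For cKO these numbers were 30244, 5.11 and 2.45. A peak counted for a promoter when it shared at least 1 base with the window from 1000 bp upstream to 100 bp downstream of a protein-coding transcription start. Intervals in brackets are 95% counting intervals (exact Poisson for a fold, exact binomial for a ratio), which cover counting error only. Over all genes with a promoter peak in both lists (10352 genes), the median cKO to WT ratio of fold enrichment was 1.57 and that of peak width was 1.43, so each ratio of a subunit gene is given beside these. In such bulk fractions, opening in more cells and wider opening per cell cannot be told apart. All 10 pachytene markers examined had a promoter peak in both lists, with folds from 4.88 to 17.6 in WT and from 9.0 to 28.1 in cKO. The spermatid marker *Tnp2* was as accessible as the strongest of these, at 17.8 and 32.4, so promoter peaks alone did not set pachytene spermatocytes apart from spermatids. Of 5 Leydig cell markers only *Star* had a promoter peak, and *Insl3*, *Hsd3b1*, *Cyp17a1* and *Cyp11a1* had none in either list.

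*Arid1a* itself, the targeted gene, kept an accessible promoter in the cKO list. In the WT list it had 2 promoter peaks, one of fold 5.82 (3.98 to 8.22) across the 5′ end and one of fold 11.4 (8.78 to 14.7) around the internal start, with a weak peak of fold 3.38 between them. In the cKO list 1 peak of fold 16.2 (13.2 to 19.7) ran from 956 bp upstream to 5114 bp downstream of the 5′ end and covered all 3. Its width was 6071 bp against 3002 bp for the strongest WT peak, a ratio of 2.02. The fold ratio was 1.42 (1.02 to 2.0), and this interval contains the median of all genes. No *Arid1a* peak of either list lay farther into the gene, so the lists hold no measure of the deletion of the floxed exons.

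Most SWI/SNF subunit genes had an accessible promoter in both genotypes. A promoter peak was present in 23 of the 30 genes in the WT list, against 50% of all genes, and in 26 of 30 in the cKO list, against 56.3%. In the cKO list only, a promoter peak was seen at 3 genes (*Smarcd3*, *Smarce1* and *Actl6b*), against 6.59% of all genes, which for 30 genes is near the background. In the WT list only, a promoter peak was seen at 0 genes, against 0.245%. The genes counted as widely used had a promoter peak in 20 of 23 in WT and 21 of 23 in cKO, and the 7 tissue-restricted genes in 3 and 5. When a peak counted only with its centre in the window, the numbers were 17 in WT and 17 in cKO. With the 5′ end of the gene as the sole start, they were 18 and 23. *Actl6a*, *Arid1b* and *Bcl7a* then also lacked a promoter peak in both lists. The shares of all genes were computed for the main window only.

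**Figure D1:**
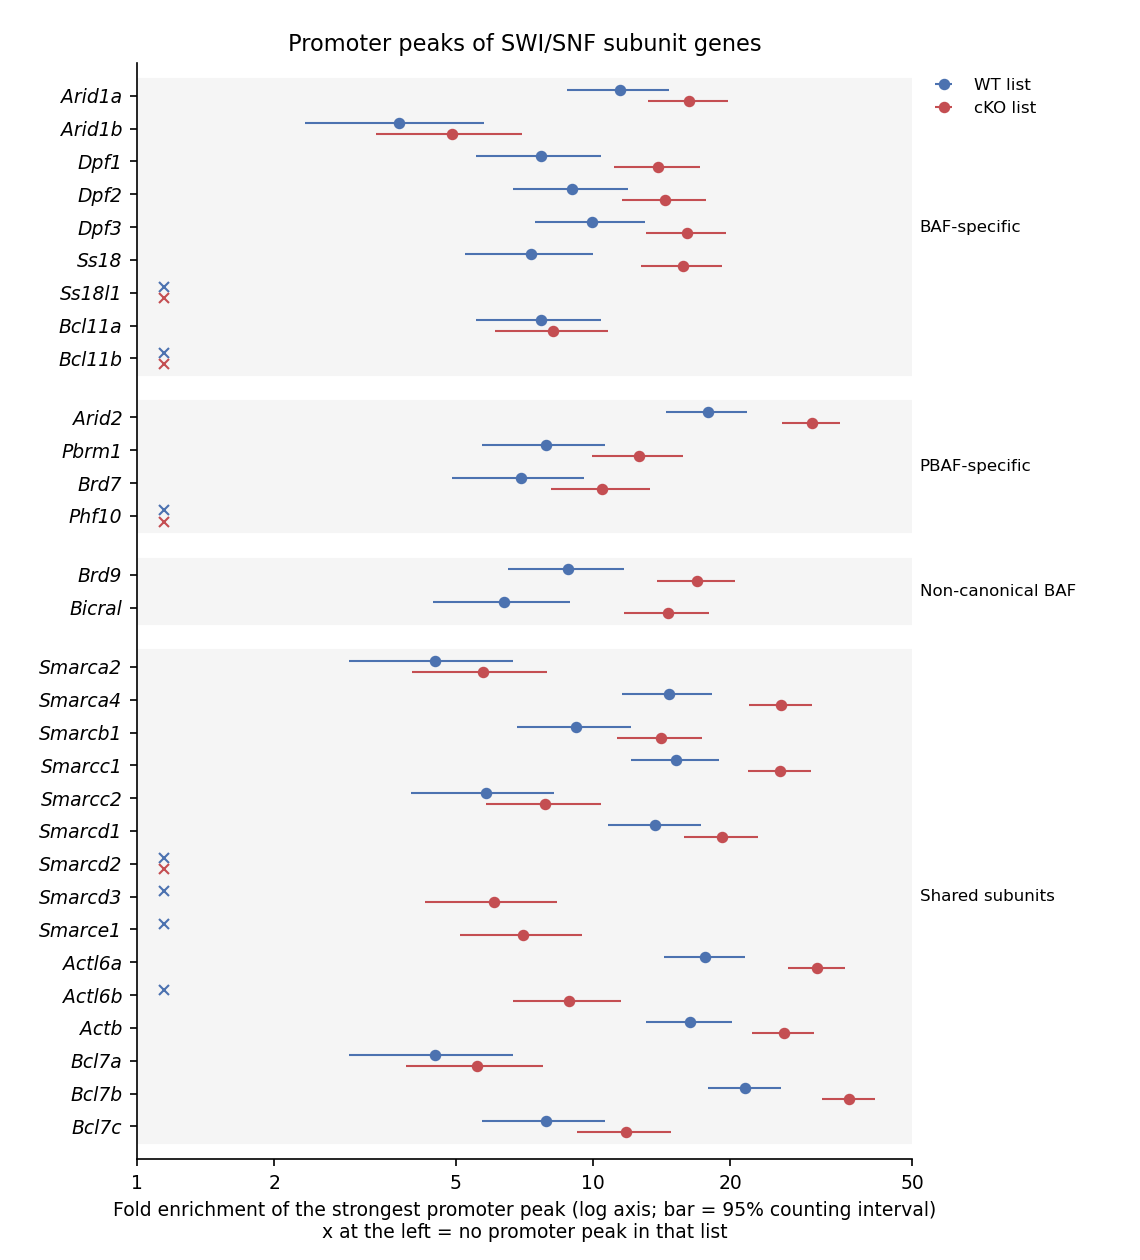
Fold enrichment of the strongest promoter peak of each of the 30 subunit genes in the WT list (blue) and the cKO list (red), grouped by complex, on a log axis. Points are single values of 1 library per genotype, bars are 95% counting intervals and crosses at the left mark genes without a promoter peak. In all 23 genes with both points the red point lies to the right, from 1.06 times for *Bcl11a* to 2.28 times for *Bicral*.

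The fold enrichment was higher in the cKO list at all 23 genes that had a promoter peak in both lists, and by about as much as at other genes. The median fold of these 23 was 8.82 in WT and 14.6 in cKO, and the median ratio was 1.60 beside 1.57 over all genes. A ratio of at least 1.5 was reached by 15 of 23, against 59.4% of all genes, and a ratio under 1 by 0 of 23, against 2.07%. The interval of the ratio failed to contain the median of all genes at 0 of the 23 genes, against 3.2% of all genes. Hence none of these promoters could be told from the general difference between the 2 lists at this depth.

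The BAF-specific genes had ratios from 1.06 to 2.15. *Dpf1* (7.69 in WT and 13.9 in cKO), *Dpf2* (9.0 and 14.4) and *Dpf3* (9.94 and 16), which encode the histone-reading PHD finger subunits, had similar folds, with overlapping intervals within each list. Their ratios were 1.81, 1.60 and 1.61. *Ss18*, the subunit fused to SSX in synovial sarcoma, had a fold of 7.32 in WT and 15.7 in cKO and a ratio of 2.15 (1.48 to 3.27), at percentile 97 of all genes. *Bcl11a*, a zinc finger subunit known from lymphoid and neural cells, was at the other end, with 7.69 in WT, 8.18 in cKO and a ratio of 1.06 (0.689 to 1.67), at percentile 3.52. The intervals of both hold the median of all genes and overlap each other. *Arid1b*, the paralog that can take the place of ARID1A in BAF, had the weakest promoter peak of the 23 in both genotypes, with 3.75 (2.33 to 5.75) in WT and 4.91 (3.34 to 6.98) in cKO. Its ratio of 1.31 (0.722 to 2.51) was below the median of all genes, and with so few fragments the interval also contains 1.

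The 3 PBAF-specific genes with a promoter peak in both lists had a narrower range of ratios, but from fewer genes than the 7 BAF-specific ones. The interval of a single ratio, such as 0.998 to 2.37 at *Brd7*, is wider than that range. *Arid2*, the ARID subunit of PBAF, had a fold of 17.8 in WT and 30.1 in cKO (ratio 1.69). *Pbrm1*, which carries a row of bromodomains, had 7.88 and 12.6 (1.60). *Brd7*, another bromodomain subunit, had 6.94 and 10.5 (1.51). The median ratio was 1.60 over 3 PBAF-specific genes, with a range of 1.51 to 1.69, and 1.60 over 7 BAF-specific genes, with a range of 1.06 to 2.15, so the medians of the BAF and PBAF classes did not differ at the precision printed. The non-canonical BAF genes had the ratios 1.91 at *Brd9* (8.82 in WT and 16.9 in cKO) and 2.28 at *Bicral* (6.38 and 14.6). At *Bicral* the strongest peaks of the lists lay at different starts: at the internal start the fold was 6.38 in WT and 11.6 in cKO, a ratio of 1.82, and near the 5′ end it was 9.94 and 14.6. The promoter peaks of *Pbrm1* and *Brd9* also covered the start of a neighbouring gene in both lists (*Gnl3* and *Trip13*, respectively), so these values belong to shared promoters.

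Among the shared subunits, the 11 genes with a promoter peak in both lists had ratios from 1.24 to 1.77, with a median of 1.53. *Smarca4*, the ATPase also called BRG1, had one of the stronger promoter peaks, at 14.6 (11.6 to 18.2) in WT and 25.9 (22.0 to 30.2) in cKO. *Smarca2*, the alternative ATPase BRM, was at 4.5 (2.92 to 6.66) and 5.73 (4.02 to 7.94). The intervals of these ATPase genes did not overlap in either list. The ratios were 1.77 (1.35 to 2.37) for *Smarca4* and 1.27 (0.738 to 2.29) for *Smarca2*, with overlapping intervals. *Smarcc1* and *Smarcc2*, whose products form the scaffold of the core, gave a like contrast. The strongest *Smarcc1* peaks lay at different starts, with 15.2 in WT and 25.4 in cKO at the internal start, and 12.2 and 25.7 at the 5′ end, where the peak also covered the start of *Dhx30*. *Smarcc2* had 5.82 in WT and 7.85 in cKO. *Smarcb1*, a core subunit and tumour suppressor, had 9.19 and 14.1 (ratio 1.53).

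*Actl6a*, which encodes the actin-like subunit of proliferating cells, had its promoter peak at the internal start printed above, with 17.6 (14.3 to 21.6) in WT and 30.9 (26.7 to 35.7) in cKO. *Actb*, the gene of beta-actin, had 16.3 and 26.2. *Smarcd1* had 13.7 and 19.1, with a ratio of 1.40 (1.04 to 1.91). *Bcl7b* had the strongest promoter peak of all subunit genes in both lists, at 21.6 (17.8 to 25.9) and 36.3 (31.7 to 41.4), percentiles 97.8 and 98.5 of all genes with a promoter peak. Its paralogs were weaker: *Bcl7c* had 7.88 and 11.8, and *Bcl7a* had 4.5 and 5.56. In each of the pairs and triplets in which more than one paralog had a promoter peak in both lists, the order of the folds was the same in WT and cKO; the intervals overlapped, however, among the DPF genes in both lists, between *Brd7* and *Brd9* in WT and between *Bcl7a* and *Bcl7c* in WT.

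**Figure D2:**
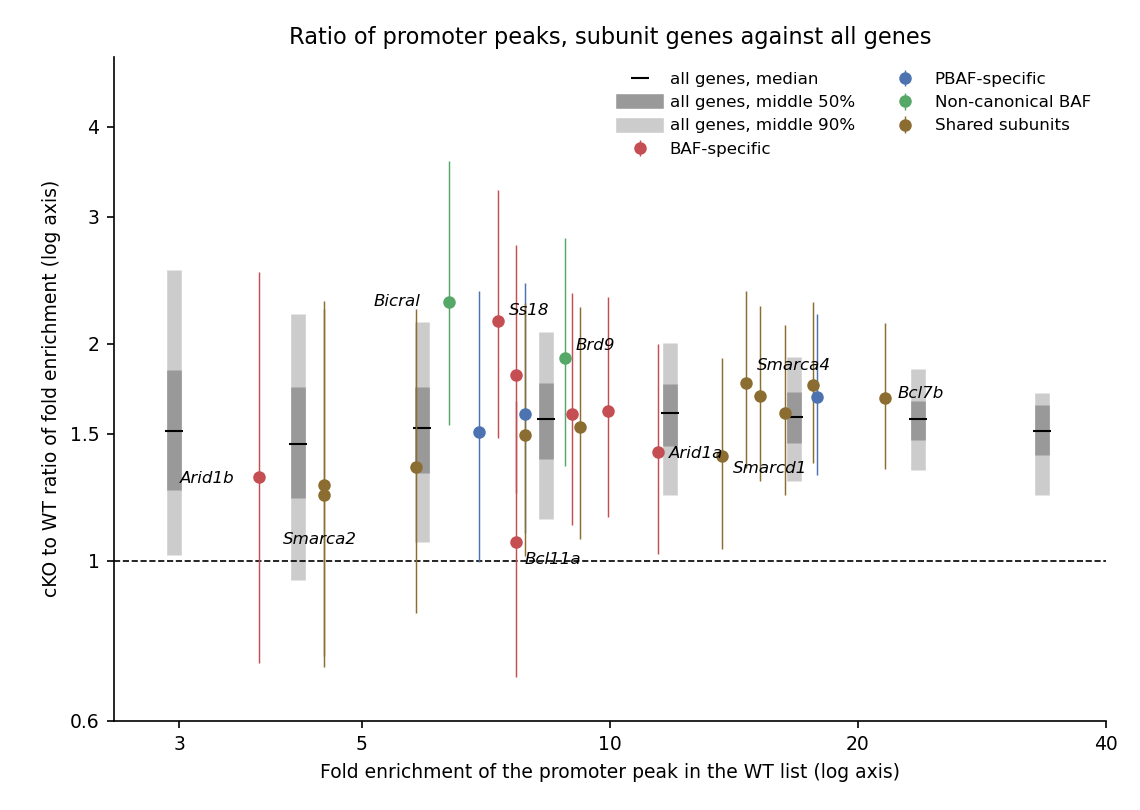
cKO to WT ratio of fold enrichment against the WT fold, both on log axes, for the 23 subunit genes with a promoter peak in both lists (points with 95% counting intervals, coloured by class). Grey bars give the middle 50% and 90% and black dashes the median of all genes in bins of WT fold; the dashed line marks a ratio of 1. *Bcl11a* lies lowest and *Bicral* highest, and the weak promoters of *Arid1b*, *Smarca2* and *Bcl7a* lie below the black dashes nearest to them.

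The 3 genes with the weakest WT promoters had ratios below the median of all genes, with intervals that hold both 1 and that median. The lowest ratio, however, was at *Bcl11a*, with a WT fold of 7.69. *Arid1b*, *Smarca2* and *Bcl7a*, the 3 genes with a WT fold under 5, had a median ratio of 1.27. Over all 1598 genes in that range the median was 1.45, with quartiles of 1.23 and 1.74. For a WT fold of 5 to 10, the median was 1.60 over 12 subunit genes and 1.56 over all genes, and for 10 or more it was 1.69 over 8 subunit genes and 1.59 over all genes. These ranges of WT fold were chosen after the values were seen.

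Promoter peaks differed in width as well. Of the 23 genes, 9 had a strongest promoter peak at least 1.5 times wider in cKO, against 44.1% of all genes, and the median width was 1426 bp in WT and 2043 bp in cKO. By span, the largest width ratio was at *Pbrm1*, where a WT peak of 670 bp was 1772 bp wide in cKO (2.64). *Smarcc2* (855 bp and 2064 bp, ratio 2.41), *Bicral* (2.11), *Ss18* (1305 bp and 2693 bp, ratio 2.06) and *Arid1a* (2.02) followed. The *Bicral* value compares peaks at different starts, and at the site of the WT peak the ratio was 1.37. By the widest single row, *Arid1b* came first (770 bp and 2113 bp, ratio 2.74), ahead of *Pbrm1* (2.49). The strong promoters of *Smarca4* (1603 bp and 1885 bp) and *Actl6a* (1638 bp and 1915 bp) were nearly as wide in WT as in cKO. A peak at least 1.5 times narrower in cKO was seen at 2 of 23 genes, *Actb* and *Bcl7b*, against 0.27% of all genes. Here the WT peak was a span over many rows of the list: the *Bcl7b* span of 6374 bp was made of 8 rows, and its widest row measured 1932 bp against 2412 bp in cKO. For *Actb* the span was 5844 bp over 6 rows, and the widest row measured 3268 bp against 3849 bp. By widest row, therefore, both were wider in cKO. *Smarcc1* was slightly narrower in cKO (1826 bp and 1723 bp, ratio 0.944), but these peaks lay at different starts. At the site of its WT peak the ratio was 1.20.

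**Figure D3:**
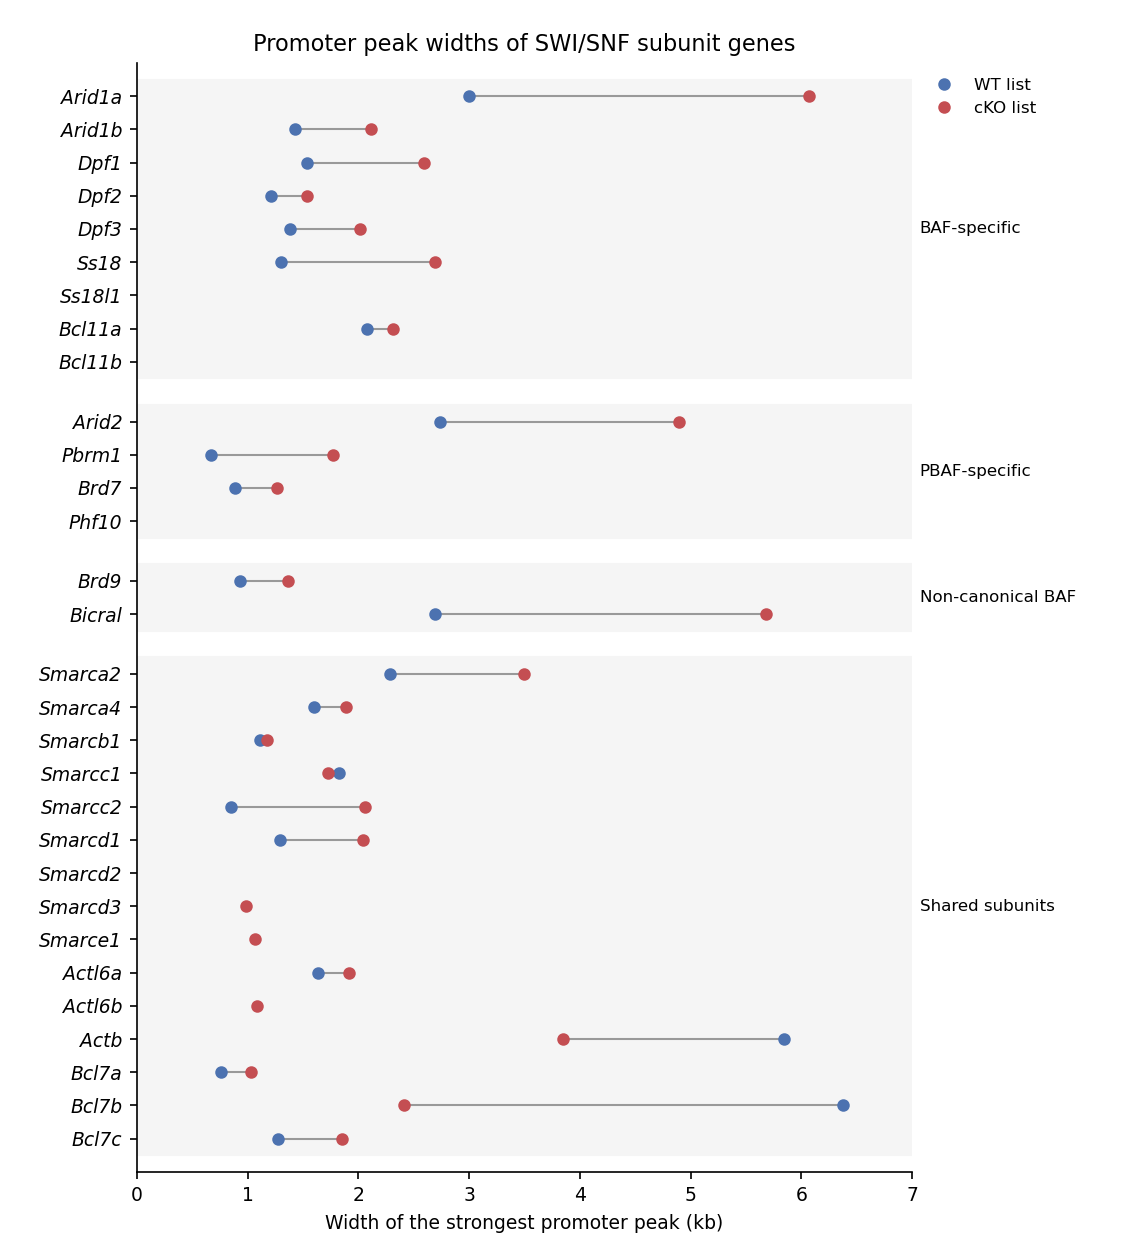
Width in kb of the strongest promoter peak of each subunit gene in the WT list (blue) and the cKO list (red), grouped by complex. Grey lines join the values of 1 gene; genes with a single point had a promoter peak in the cKO list only. Most red points lie to the right. *Bcl7b* and *Actb*, whose WT spans hold 8 and 6 rows, lie the other way, and so does *Smarcc1* by a small step.

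At 5 genes the strongest cKO promoter peak covered what were 2 or more peaks in the WT list (*Arid1a*, *Arid2*, *Smarca2*, *Smarcc2* and *Bicral*, 5 of 23, against 5.44% of all genes). At *Arid2* a WT peak of fold 17.8 ended 622 bp upstream of the 5′ end and one of fold 8.07 started 184 bp upstream; the cKO peak of fold 30.1 reached from 3448 bp upstream to 1443 bp downstream. At *Smarca2* the WT peaks of fold 4.5 and 4.13 were 1 peak of fold 5.73 in cKO. At *Smarcc2* the WT peaks of fold 5.44 and 5.82, on either side of the 5′ end, were 1 peak of fold 7.85. At *Bicral* the peaks of fold 9.94 and 3.56 within 4655 bp of the 5′ end were 1 peak of fold 14.6. All 5 thus had accessible sites on either side of a gap that was part of the peak in cKO.

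**Figure D4:**
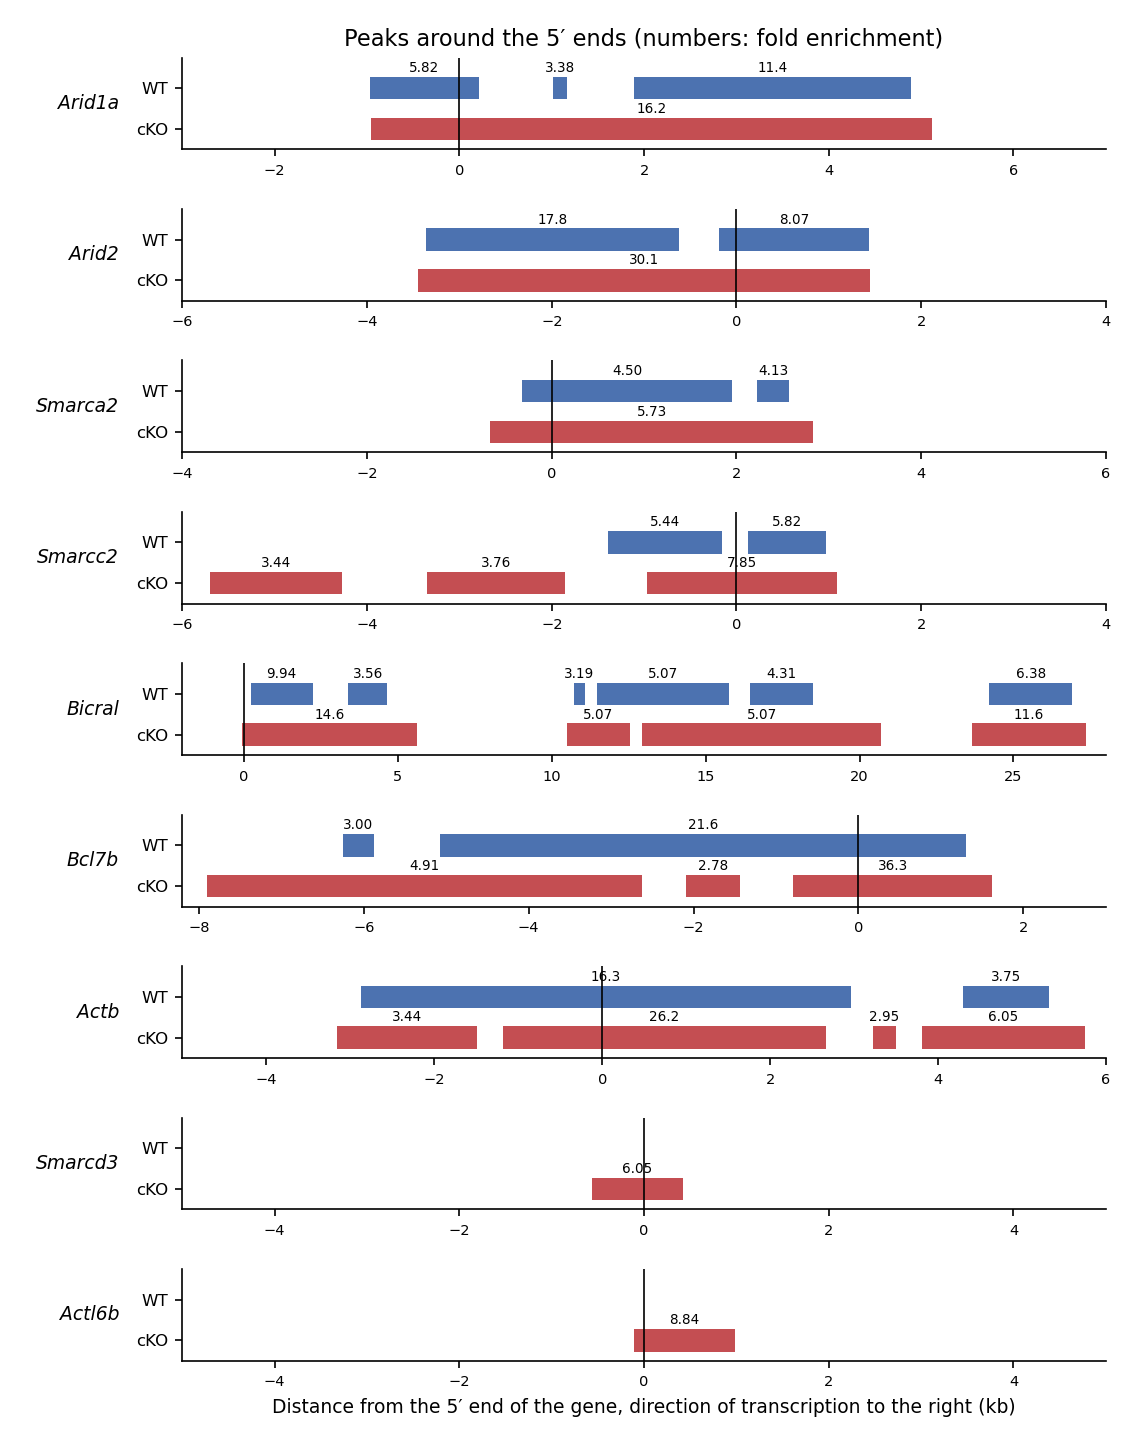
Peaks of the WT list (blue) and the cKO list (red) around the 5′ ends of 9 subunit genes, with the distance from the 5′ end in kb (vertical line at 0, transcription to the right; the scale differs between genes) and the fold enrichment printed above each peak. At *Arid1a*, *Arid2*, *Smarca2*, *Smarcc2* and *Bicral* a red bar covers several blue bars, at *Bcl7b* and *Actb* a blue span covers several red bars, and at *Smarcd3* and *Actl6b* there is only a red bar.

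Of the genes with a promoter peak in the cKO list only, *Actl6b* had the strongest. ACTL6B takes the place of ACTL6A in the neuronal complex. Its gained peak lay on chromosome 5 (mm10) from 137553413 to 137554501, 104 bp upstream to 984 bp downstream of the 5′ end, with a fold of 8.84 (6.66 to 11.5) from 53 fragments. This fold is at percentile 96.2 of the 1371 genes with a promoter peak in the cKO list only, whose median was 3.93. *Smarcd3*, the SMARCD paralog known from heart and muscle, had a gained peak from 24623994 to 24624978 on the same chromosome, 567 bp upstream to 417 bp downstream of the 5′ end, with a fold of 6.05 (4.29 to 8.32) at percentile 86.2. In the WT list the nearest peak was 15.6 kb away from the 5′ end of *Actl6b* and 37.4 kb away from that of *Smarcd3*. The words of 32 bases in these gained peaks occurred once in the chromosomes for 99.3% of positions at *Actl6b* and 100% at *Smarcd3*. *Smarce1*, the HMG-box subunit, had a cKO promoter peak of fold 7.04 (5.12 to 9.45), but a WT peak of fold 4.69 (3.07 to 6.89) lay at the same site, 151 bp downstream of the 5′ end and so just outside the promoter window. *Smarce1* is thus a case at the edge of the window, and with 1000 bp on either side of a start only *Actl6b* and *Smarcd3* were gained.

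Some markers of other testis cells also had a promoter peak in the cKO list only, though a weaker one than *Actl6b* and *Smarcd3*. Their cKO folds were 3.11 at *Zbtb16* and at *Cd68*, 3.27 at *Kit* and at *Wt1*, and 3.44 at *Prm1*. Spermatogonial markers had a promoter peak at 0 of 5 genes in WT and 2 of 5 in cKO, and spermatid markers at 2 of 5 and 3 of 5. Spermatid markers held the strongest of these peaks. *Tnp2* had 17.8 in WT and 32.4 in cKO, and *Prm2* had 3.19 and 32.4, while *Tnp1* and *Acrv1* had none. The cKO folds of *Tnp2* and *Prm2* are equal to every digit given (32.4009). For both genes the strongest cKO peak covered 2 or more WT peaks. Whether the same cKO peak covers both starts was not tested, so they cannot be counted as 2 separate values. Sertoli cell markers had one at 2 of 5 genes in each list, at *Amh* (3.19 in WT and 13.4 in cKO) and *Gata4* (3.19) in WT and at *Amh* and *Wt1* in cKO, while *Sox9* and *Rhox5* had none. Blood cell markers had 0 of 4 in WT and 1 of 4 in cKO, and *Ptprc* had none. The part of other cell types in the gained peaks of *Actl6b* and *Smarcd3* was not tested.

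Further starts within genes gained weaker peaks. *Dpf1* had a gained peak of fold 3.27 at an internal start 5530 bp from the 5′ end. *Smarca2* had gained peaks at 2 internal starts, of fold 3.93 (2.55 to 5.81) at 18350 bp and of fold 3.27 at 142751 bp from the 5′ end, besides the common peak at its main promoter. *Bcl11a* had a gained peak of fold 2.45, the lowest fold in the cKO list, centred 643 bp upstream of its 5′ end.

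No promoter peak was found in either list at *Phf10*, *Smarcd2*, *Ss18l1* and *Bcl11b*. For the first 3, the absence describes the lists used here. Whether the chromatin there was closed was not tested, and the following values are given beside it. *Phf10*, the PHD finger subunit of PBAF, lies in duplicated sequence: only 8.88% of the words of 32 bases in its promoter window occurred once in the chromosomes, against 66.7% to 100% in the windows of the other subunit genes. Its nearest peak was 17.3 kb away in WT, and its stretch without a peak, 296 kb in WT and 132 kb in cKO, held the starts of 6 other protein-coding genes. *Smarcd2* sat in a stretch of 176 kb in WT and 83.5 kb in cKO, which in both lists also held *Psmc5*, and *Ss18l1* in one of 127 kb and 80.2 kb that also held *Psma7*. *Psmc5* and *Psma7* encode proteasome subunits. Of 38 proteasome subunit genes, 33 had a promoter peak in WT and 34 in cKO. The 4 without one in either list were *Psma7*, *Psmc5*, *Psmb10* and *Psmb11*, the last of which is specific to the thymus. Proteasome genes were looked at after these values were seen. The part of these stretches in the missing peaks of *Smarcd2* and *Ss18l1* was not tested. At *Bcl11b*, a zinc finger gene known from T cells, peaks of fold 3.0 in WT and 6.22 in cKO lay 2.61 kb and 2.09 kb from its 5′ end, and an intron peak was common to both lists (3.56 and 4.91).

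Inside the genes, away from promoter windows, most peaks of the WT list were also in the cKO list. There were 20 common peaks in 13 genes and 1 lost peak. The median ratio of the fold of the overlapping cKO peak was 1.33, with a range of 0.80 to 4.8, and the highest values came from weak WT peaks that merged into a promoter peak. The most prominent was in an intron of *Arid1b*, 195660 bp from the 5′ end, with 13.7 (10.8 to 17.2) in WT and 19 (15.7 to 22.8) in cKO, so that this intron was more accessible than the *Arid1b* promoter in both lists. Another intron peak of *Arid1b* had 6.57 in WT and 14.2 in cKO, a ratio of 2.17. *Bcl11a* had a common peak 1612 bp before its 3′ end, with 6.19 and 8.35. A lower fold in cKO was seen at 1 of the 20 peaks, in an intron of *Dpf3* (4.5 and 3.60).

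Gained intragenic peaks were frequent but weak. At least 1 was found in 11 of the 30 genes, against 18.6% of all genes, and a lost one in 1 of 30, against 1.95%. The share with a gained peak was 36.7% for the subunit genes and 47.8% (11 of 23) for autosomal genes of other remodelers, *Bicra* among them. The 14 gained peaks had folds from 2.45 to 4.42 with a median of 2.95, beside 3.27 over 6178 gained intragenic peaks of all genes, and 7 of 14 (50%) lay on 3 or more rows, beside 53.4%. The count rests on weak peaks: 1 of the 14, at *Smarcd1*, was left when the weakest cKO peaks were dropped until the lists were equally long. Among genes under 20 kb, 5 of 8 subunit genes had a gained peak, against 11.5% of all such genes. The shares were 4 of 16 against 21.8% from 20 to 100 kb and 2 of 6 against 42.2% over 100 kb. Gained intragenic peaks were found in 4 of 9 BAF-specific and 7 of 15 shared genes, and in 0 of 4 PBAF-specific and 0 of 2 non-canonical BAF genes; with so few genes a difference between classes was not detectable.

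The strongest gained intragenic peak was at *Smarcd1*, with a fold of 4.42 (2.94 to 6.40) over 3024 bp. It ran over the 3′ end of the gene, with its centre 1005 bp beyond. *Dpf3* had one of fold 3.44 in an intron, and *Smarcb1* one of fold 3.11 in an intron 5961 bp before the 3′ end. *Dpf1* had one of fold 3.11 in an exon 530 bp before the 3′ end. Those at *Actb*, *Bcl7a* and *Actl6a* had a fold of 2.95, and the *Actl6a* peak measured 9 bp. *Bcl7b* had 2, of fold 2.62 and 2.95, *Dpf2* had 1 of fold 2.78 and *Smarcc2* had 1 of fold 2.62. *Arid1b* had 3 in its long introns, of fold 3.27, 2.45 and 3.27, and also the 1 lost peak, of fold 3.38. In the *Arid1b* peaks of fold 3.27 and in the lost one, the words of 32 bases occurred once for 43.8%, 0% and 10.4% of positions, and in the *Dpf2* peak for 13.2%, so that reads from other copies could have been placed there; the part of such reads was not tested.

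**Figure D5:**
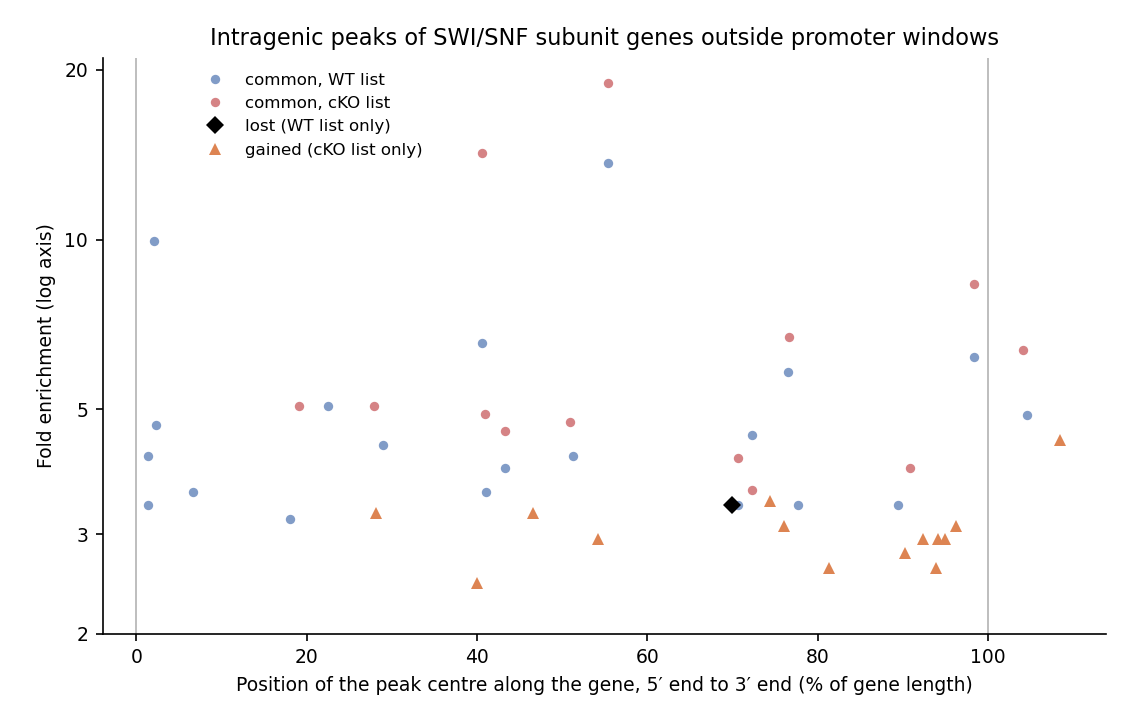
Fold enrichment (log axis) of the peaks inside subunit genes that lie outside promoter windows, against the position of the peak centre in % of gene length (0 is the 5′ end, 100 the 3′ end; values over 100 lie beyond the gene). Circles are peaks common to both lists, triangles peaks gained in cKO and the diamond the peak lost in cKO. The triangles lie between 2.45 and 4.42, below most circles, and many lie near 100%.

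Many gained intragenic peaks lay near gene ends. Of the 14, 8 (57.1%) had their centre within 3 kb of the 3′ end, beside 21.8% of those of all genes. In genes under 100 kb it was 8 of 10 (80%) beside 30.2%. This pattern was looked for after the positions had been seen and is given as a description.

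Other remodeler genes gave the background of like genes. Of 23 autosomal genes of the ISWI, CHD, INO80 and related families, 20 had a promoter peak in WT and 23 in cKO. The 23 include *Bicra*, a SWI/SNF gene outside the list of 30. Over the 20 with both, the median fold ratio was 1.69, beside 1.60 for the SWI/SNF genes, and 17 of 20 reached 1.5. The highest ratio, 6.64, was at *Bicra*, the paralog of *Bicral*, which had 3.38 in WT and 22.4 in cKO; these peaks lay at different starts, and at the 5′ end the values were 3.38 and 5.89.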

How the data were processed

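Omni-ATAC libraries were made from 8 samples, 4 per genotype. According to the study's methods and the submitters' processing notes, the authors trimmed reads (Trim Galore), aligned them to mm10 (Bowtie2), removed duplicates (Picard) and mitochondrial reads (SAMtools), called peaks with MACS2 without a local background, and intersected the replicates of a genotype into 1 list. No mapping quality filter is given in the sources used here. The names of both lists hold the term blfilt, which may stand for a filter of blacklisted regions. The part of such a filter in the stretches without a peak was not tested. The deposited columns used are the fold enrichment, a linear ratio at the summit, and the −log10 q-value, both of 1 library per genotype. Depth is known only through the background per base and the lowest listed summit, 13 fragments in WT and 14 in cKO.

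List rows that share a peak name were collapsed to 1 span (52419 rows in WT and 84006 in cKO). Genes and starts were those of GENCODE vM21. A cKO peak sharing at least 1 base with a WT peak was common, otherwise gained, and a WT peak without such overlap was lost. Where a gene had several promoter peaks, the one with the highest fold was used. Every subunit gene was accounted for, with values for genes lacking a promoter peak, with gained or lost intragenic peaks, or in a paralog group. The genes, classes and comparison lists were chosen with earlier results of these data known. The script was tested on simulated peak lists. Python 3.11.15, numpy 2.4.6, pandas 2.3.3, scipy 1.17.1 and matplotlib 3.10.9 were used. Alternatives covered the promoter window, peak strength, row support, list length and the background term.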

Additional observations from a re-analysis of the deposited data

How the results depend on the processing

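Of 83 values recomputed under alternatives, 69 stayed near the reported value, 14 moved and 0 reversed. Only a median could be called reversed, by crossing a ratio of 1. A count could only stay near or move, so the 0 says nothing about the counts. A count was called near when it differed by at most 1.5 times. A median was called near when it lay within its 95% interval over genes, or within the full range for the BAF and PBAF classes. This rule is wide: 17 genes with a WT promoter peak by centre (23 as reported) counted as near. Counting a promoter peak only by its centre gave 17 genes in cKO (26 as reported) and 3 genes in WT only, *Arid1a*, *Dpf3* and *Smarcb1* (0 as reported), whose cKO peaks had their centre outside the window. With the 5′ end as the sole start, 5 genes were gained in cKO (3 as reported), *Bcl11a* and *Bicral* in addition. With both lists limited to a −log10 q of at least 5, there were 4 gained intragenic peaks (14 as reported) and 0 lost (1 as reported). Of these 4 only that of *Smarcd1* was among the 14, and those of *Arid2*, *Bcl11b* and *Smarcb1* counted as gained because their WT partner was removed. At 10 there were 3 gained, at *Actl6b*, *Bcl11b* and *Pbrm1*, none of them among the 14, and 0 lost, while 6 genes had a promoter peak in cKO only, *Arid1b*, *Bcl7a* and *Smarca2* in addition. Peaks on 3 or more rows gave 9 gained, and dropping the weakest cKO peaks to equal list lengths gave 1 gained and 2 lost. Limiting the cKO list alone at 5, an alternative chosen after seeing the data, left 1 gained, at *Smarcd1*. The gained intragenic count thus depends on weak peaks. Subtracting the background from the summit gave a median fold ratio of 1.92 for all subunit genes (1.60 as reported). It gave 1.92 for BAF-specific and 1.93 for PBAF-specific genes (1.60 as reported for each), so both classes shifted. Matching peaks by site was likewise chosen after seeing the data, and gave medians near those reported. No paired analysis was possible because each genotype has 1 list made over its libraries, and leaving out single replicates could not be run for the same reason. Each list's depth limits folds near the lowest listed values.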
